A study of Mus musculus with 6 samples.

Results

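The 8 genes described here, Dcn, Bgn, Lum, Fmod, Ogn, Prelp, Aspn and Podn, encode small leucine-rich proteoglycans. They were chosen by name, and each stands on 1 of the 31815 gene rows of the table. Their mRNA was measured by poly(A) RNA sequencing in 6 libraries of cells sorted from injured mouse kidneys. All mice were males of 9 to 12 weeks, of the genotype Axin2CreERT2/+:R26RtdT/+:Acta2-GFP, and went through ischemia reperfusion injury of both kidneys, in which blood flow is stopped and restored. Tamoxifen on days 2 and 4 switched on the red protein tdT for good in cells whose Axin2 locus was active then, since the Cre sits in Axin2, a gene that canonical Wnt signalling induces. On day 6 cells with green fluorescence from Acta2-GFP were sorted into tdT+GFP+ cells (3 libraries) and tdT-GFP+ cells (3 libraries). Acta2-GFP reports smooth muscle actin, a marker of myofibroblasts that is not particular to them. Both populations carry the same alleles, had the same injury and drug, and come from kidneys 1, 2 and 3. The red label depends on Cre activity in a short window and on recombination, so tdT- cells need not have lacked Wnt activity. The labels call the numbers biological replicates and do not say how many animals stand behind each.

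Small leucine-rich proteoglycans are secreted proteins with a curved core of leucine-rich repeats that binds collagen fibrils and controls their assembly, width and spacing. Many carry sugar chains, chondroitin or dermatan sulfate on the class I proteins decorin and biglycan, and keratan sulfate on class II proteins such as lumican and fibromodulin. Released forms also act as signals: decorin binds TGF-beta and damps receptor tyrosine kinases, and biglycan is a ligand of Toll-like receptors. In kidney they are known as products of fibroblasts, pericytes and mesangial cells in scarring tissue.

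Library totals ran from 25697348 to 33029933 counts, and 3 counts corresponded to 0.0915 to 0.114 CPM (the unit of level used here, a gene's count relative to the TMM-scaled library total). The 7 fibroblast markers summed to 31107 to 44278 CPM, but were uneven in level. Col1a1 stood at 14923 to 21843 CPM, Pdgfrb at 1369 to 1758 CPM and Pi16 at 3.42 to 69.8 CPM. Acta2, the gene behind the green sort, stood at 943 to 1746 CPM. Markers of other cells were present too. The summed level of 9 endothelial markers was 451 to 734 CPM in tdT+GFP+ and 1037 to 1723 CPM in tdT-GFP+ libraries, and that of 8 mural cell markers was 944 to 1115 and 1176 to 1906 CPM. The 9 tubule markers summed to 456 to 765 and 693 to 1639 CPM, the 3 podocyte markers to 76.3 to 101 and 161 to 303 CPM, and the 6 macrophage markers to 339 to 1269 and 238 to 746 CPM. The 4 Schwann cell markers summed to 1.76 CPM at most. No marker of these lists was at 0 in all libraries. In such bulk samples, fewer cells of a type and less RNA per cell cannot be told apart.

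The genes lie in 3 family clusters and 2 single positions on GRCm38. Dcn (ENSMUSG00000019929.16, chromosome 10, 97479609 to 97518143, plus strand) and Lum (ENSMUSG00000036446.5, chromosome 10, 97565128 to 97572703, plus strand) are 47.0 kb apart. Prelp (ENSMUSG00000041577.5, chromosome 1, 133910304 to 133921414, minus strand) and Fmod (ENSMUSG00000041559.7, chromosome 1, 134037254 to 134048277, plus strand) are 115.8 kb apart. Aspn (ENSMUSG00000021388.14, chromosome 13, 49544443 to 49567565, plus strand) and Ogn (ENSMUSG00000021390.6, chromosome 13, 49608046 to 49624501, plus strand) flank the family gene Omd, at gaps of 14.9 and 15.2 kb. Bgn (ENSMUSG00000031375.17, chromosome X, 73483602 to 73495933, plus strand) and Podn (ENSMUSG00000028600.15, chromosome 4, 108014791 to 108096445, minus strand) have no family gene beside them. Aspn and Ogn lie inside the span of Cenpp, on its other strand. Its exons share 7 bases with Aspn and 0 with Ogn, and Cenpp had 0.913 to 1.71 CPM. Prelp shares 350 exon bases with the antisense gene Gm15851, at 0.888 to 1.45 CPM. Podn shares its span but 0 exon bases with Scp2. The libraries were strand-specific, and the strand setting of the counting is not given in the labels.

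RefSeq (GRCm38.p6) start sites were at hand for 6 of the 8 genes. The 250 bases before the start are shown for Fmod and Podn, whose levels moved together across libraries, and for the neighbours Aspn and Ogn, whose levels did not. Capitals mark matches on either strand to 5 short motifs: for the TATA box TATAAA, for TCF/LEF factors CTTTGAT, for SMAD proteins CAGACA, for AP-1 factors TGANTCA and for TEAD factors GGAATG.
Fmod, chr1:134037004-134037253, plus strand: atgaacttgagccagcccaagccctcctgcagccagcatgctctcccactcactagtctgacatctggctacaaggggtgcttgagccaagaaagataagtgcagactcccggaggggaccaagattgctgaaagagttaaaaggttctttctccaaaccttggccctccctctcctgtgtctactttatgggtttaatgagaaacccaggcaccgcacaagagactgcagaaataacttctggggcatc
Podn, upstream start, chr4:108031955-108032204, minus strand: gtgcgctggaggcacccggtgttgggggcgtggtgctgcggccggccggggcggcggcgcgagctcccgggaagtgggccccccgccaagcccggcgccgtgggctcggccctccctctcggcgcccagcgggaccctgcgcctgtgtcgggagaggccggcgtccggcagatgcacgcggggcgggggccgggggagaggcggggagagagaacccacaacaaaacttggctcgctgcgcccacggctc
Aspn, chr13:49544193-49544442, plus strand: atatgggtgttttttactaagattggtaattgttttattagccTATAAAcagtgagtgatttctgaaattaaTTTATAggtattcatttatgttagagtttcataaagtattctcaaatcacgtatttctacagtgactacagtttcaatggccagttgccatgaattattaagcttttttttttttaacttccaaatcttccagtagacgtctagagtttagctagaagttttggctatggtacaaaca
Ogn, chr13:49607765-49608014, plus strand: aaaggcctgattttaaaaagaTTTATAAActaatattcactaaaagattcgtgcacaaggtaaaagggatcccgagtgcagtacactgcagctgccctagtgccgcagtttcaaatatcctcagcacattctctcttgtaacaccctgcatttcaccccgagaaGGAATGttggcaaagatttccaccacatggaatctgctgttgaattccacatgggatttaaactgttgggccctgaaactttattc
The windows of the co-varying pair differed in base composition, most so for the upstream Podn start. Its window had a GC content of 78.0% with 32 CpG pairs, and that of the second Podn start 64.0% with 7. The Fmod window had 51.2% with 2, where the median of 32851 such windows was 52.4% and 6. Which Podn start these cells used was not tested. The Aspn window had a low GC content of 30.0% with 2 CpG pairs, and that of Ogn had 42.0% with 4. The capitals are matches to TATAAA in Aspn (207 and 178 bases before the start) and Ogn (an overlapping pair at 229 and 227), and to GGAATG in Ogn (86 bases before). TATAAA stood in 12.4% and GGAATG in 12.6% of all windows. None of the 7 windows of these genes, those of Bgn, Prelp and the second Podn start included, held the TCF/LEF, SMAD or AP-1 letters, which stood in 3.21%, 17.1% and 6.75% of all windows.

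Biglycan was by far the leading transcript of the family. Per kilobase of transcript (CPM divided by the length of the protein-coding transcript with the longest coding sequence), Bgn had a mean level of 2404 ± 181, Dcn 357 ± 96.9 and Prelp 101 ± 23.3 (SD, n = 6 libraries), and the ranges of these 3 did not overlap. Ogn followed at 32.7 ± 5.65 and Lum at 26.2 ± 19.7, and either could be the higher: Ogn exceeded Lum in 3 of 6 libraries. Podn (10.2 ± 4.83), Fmod (7.84 ± 3.91) and Aspn (3.64 ± 1.30) closed the order with ranges that overlapped from each to the next. Divided by merged exon length instead, the means kept this order, with Dcn (108) and Prelp (101) close together. The 8 genes together took 0.653% to 0.768% of all counts, of which Bgn alone made 80.5% to 85.6%.

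**Figure D1:**
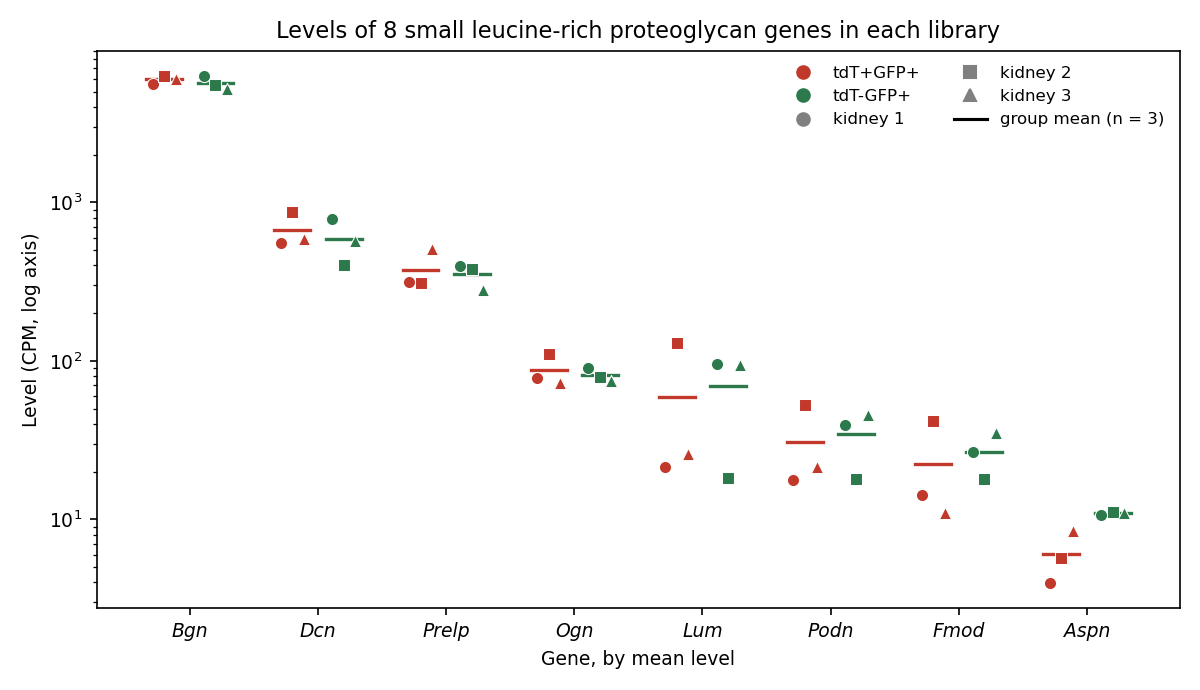
Levels of the 8 genes in CPM on a log axis, by gene in order of the mean level, with tdT+GFP+ libraries in red and tdT-GFP+ libraries in green, a marker shape per kidney and a line at each group's mean. Bgn holds within 5205 to 6264 CPM, Lum spreads from 18.2 to 130 CPM inside both groups, and only the Aspn groups do not overlap.

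None of the 8 genes differed between the sorted populations past the threshold. All 8 passed the filter on low counts, and 0 had an adjusted p under 0.05 in edgeR's quasi-likelihood test, where 0% of the 15462 genes tested were called. At an unadjusted p under 0.05 there was 1 of 8, Aspn, where 10.7% of all genes lay, and Aspn was also the 1 gene of 8 whose groups did not overlap, where 15.8% of all genes did not. DESeq2 called 0 of 8 (1.93% of its genes), and 0 of 8 with a term for the kidney (1.95%). Log2 fold changes, positive where tdT+GFP+ cells were higher, were above 0 for 4 genes and below 0 for 4, with a median of -0.05, and the median over all genes tested was -0.00039.

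**Figure D2:**
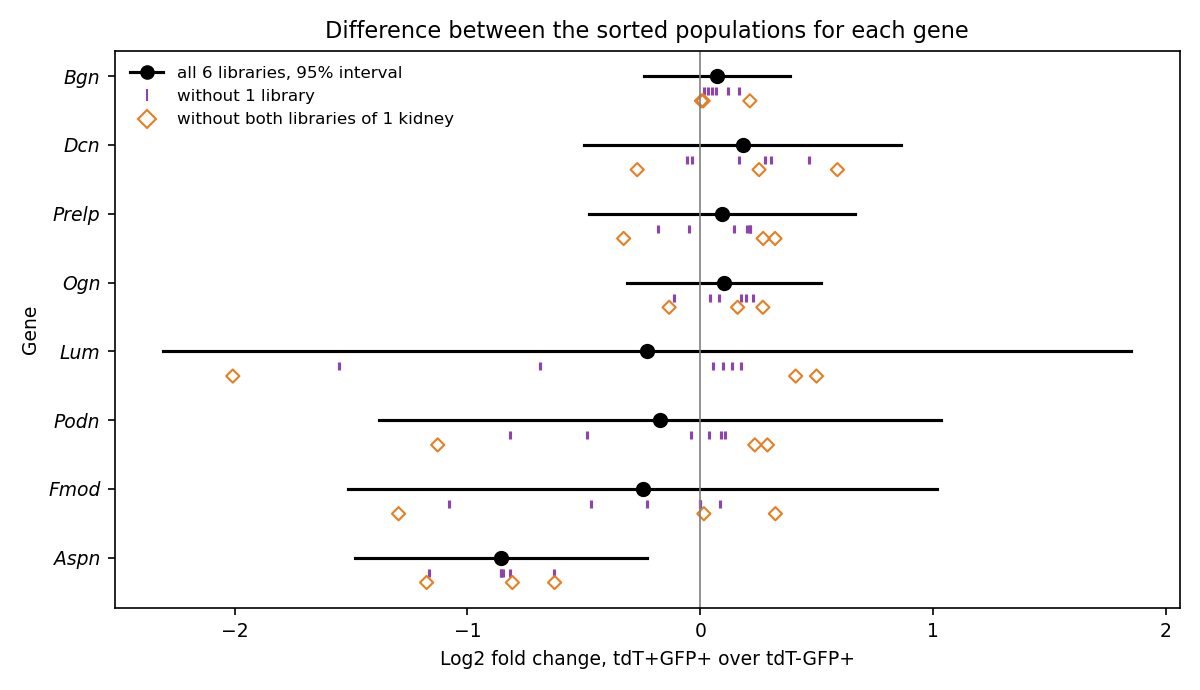
Log2 fold changes of tdT+GFP+ over tdT-GFP+ cells per gene, with the 95% interval from all 6 libraries (black), the value without each single library (purple ticks) and without both libraries of a kidney (orange diamonds). Only the Aspn interval, -1.48 to -0.23, lies on one side of 0, and the widest, -2.31 to 1.85, is that of Lum.

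Decorin, the class I protein that coats collagen fibrils and binds TGF-beta, had levels of 552, 868 and 584 CPM in tdT+GFP+ libraries 1, 2 and 3 and of 789, 403 and 575 CPM in tdT-GFP+ libraries 1, 2 and 3. The groups overlapped, and both the highest and the lowest level came from kidney 2. For Dcn the log2 fold change came to 0.18 (SE 0.28, 95% interval -0.50 to 0.86, adjusted p = 0.802, edgeR). It turned to -0.06 without replicate 2 of tdT+GFP+ cells, to -0.04 without replicate 2 of tdT-GFP+ cells and to -0.27 without both.

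Biglycan, its closest relative, was the steadiest of the 8. Bgn stood at 5574, 6264 and 6046 CPM in tdT+GFP+ and at 6261, 5536 and 5205 CPM in tdT-GFP+ libraries. The highest level was 1.20 times the lowest, and the groups overlapped. The edgeR estimate for Bgn, 0.07 on the log2 scale (SE 0.13, adjusted p = 0.832), had the narrowest interval of the family, -0.24 to 0.39. Counts of Bgn per count of Dcn ran from 7.21 in tdT+GFP+ library 2 to 13.7 in tdT-GFP+ library 2. The level of Dcn, which varied 2.16 times, made up more of that range than Bgn.

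Asporin, the third class I protein, which competes with decorin for collagen and binds TGF-beta, was the least abundant and the most separated. Aspn had 3.99, 5.67 and 8.44 CPM in tdT+GFP+ libraries, from 131, 176 and 222 counts. The tdT-GFP+ libraries stood close together at 10.7, 11.1 and 10.9 CPM, from 325, 298 and 294 counts. Every tdT-GFP+ library was above every tdT+GFP+ library, and the scatter lay in the tdT+GFP+ group. The means were 6.04 ± 2.25 and 10.9 ± 0.218 CPM (SD, 3 libraries each). On the log2 scale Aspn differed by -0.86 (SE 0.26, 95% interval -1.48 to -0.23, unadjusted p = 0.0150, adjusted p = 0.421, edgeR), which is not past the threshold. DESeq2 gave an adjusted p of 0.112 without and 0.151 with a term for the kidney. In edgeR with that term the estimate was -0.92 (adjusted p = 0.475). Within kidneys 1, 2 and 3 the differences in log2 CPM were -1.41, -0.96 and -0.36. The value kept its sign under all 18 alternatives, from -1.22 to -0.63, with adjusted p from 0.112 to 0.915. Since the groups did not overlap, leaving out libraries could hardly turn the sign, so the kept sign adds no separate support. Per 1000 counts of Col1a1, Aspn had 0.192, 0.297 and 0.387 counts in tdT+GFP+ and 0.498, 0.590 and 0.730 in tdT-GFP+ libraries. This ratio reuses the same Aspn counts and adds no separate support. Mean Col1a1 was 20570 CPM in tdT+GFP+ and 18423 CPM in tdT-GFP+ libraries, which moves the ratio the same way. The summed levels of endothelial, mural and podocyte markers given above were likewise higher in every tdT-GFP+ than in every tdT+GFP+ library, and their part in the Aspn difference was not tested.

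Its neighbours on chromosome 13 did not share this separation. Ogn, which encodes osteoglycin (mimecan), a class III member that takes part in fibril formation, had 78.0, 111 and 72.0 CPM in tdT+GFP+ and 89.6, 79.3 and 74.1 CPM in tdT-GFP+ libraries. The groups overlapped, with library 2 of tdT+GFP+ cells on top. The estimate for Ogn was 0.10 on the log2 scale (SE 0.17, interval -0.32 to 0.52, adjusted p = 0.822, edgeR). It turned to -0.11 without replicate 2 of tdT+GFP+ cells, and to -0.13 when kidney 2 was left out. Between them, Omd (osteomodulin, a keratan sulfate proteoglycan best known from bone) had 1.19 to 2.71 CPM, and edgeR put its difference at 0.26 (SE 0.38, adjusted p = 0.791). On the other side of Aspn, 11.7 kb away, Ecm2 had 23.1, 26.8 and 31.2 against 33.5, 36.9 and 26.9 CPM (-0.26, SE 0.16, adjusted p = 0.533), with overlapping groups. The difference in change between Aspn and these neighbours was not tested.

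Lumican, the class II protein that spaces collagen fibrils, had the most uneven levels, and the unevenness ran across the sort rather than along it. Lum stood at 21.4, 130 and 25.9 CPM in tdT+GFP+ libraries 1, 2 and 3, from 702, 4032 and 682 counts. In tdT-GFP+ libraries it stood at 95.5, 18.2 and 93.9 CPM, from 2902, 486 and 2533 counts. A single tdT+GFP+ library and a pair of tdT-GFP+ libraries were high, the other 3 were low, and no library lay between 25.9 and 93.9 CPM. The highest level was 7.16 times the lowest. The SD of log2 CPM within groups was 1.40 for Lum, larger than that of 99.4% of the genes tested (median 0.18). The log2 fold change of -0.23 (SE 0.87, interval -2.31 to 1.85, adjusted p = 0.929, edgeR) therefore bounds the group difference poorly.

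Podocan, a class V protein known as a brake on smooth muscle growth, repeated this order at lower amplitude. Podn had 17.8, 52.4 and 21.4 CPM in tdT+GFP+ and 39.5, 17.9 and 45.8 CPM in tdT-GFP+ libraries. The same 3 libraries were high, all at 39.5 CPM or above, and the other 3 at 21.4 CPM or below. For Podn edgeR gave -0.17 on the log2 scale (SE 0.50, interval -1.38 to 1.04, adjusted p = 0.903, edgeR).

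Fibromodulin, the class II relative of lumican that guides fibril maturation and crosslinking, also had its 3 highest levels in those libraries. Fmod had 14.2, 41.8 and 11.0 CPM in tdT+GFP+ and 26.7, 18.1 and 34.9 CPM in tdT-GFP+ libraries, with less distance between high and low than Lum. For Fmod edgeR gave -0.25 on the log2 scale (SE 0.53, interval -1.51 to 1.02, adjusted p = 0.860, edgeR). Within-group SDs of log2 CPM were 0.80 for Fmod and 0.78 for Podn, above those of 94.4% and 94.1% of the genes tested. For Dcn it was 0.43 (79.6%), for Aspn 0.38 (76.4%), for Prelp 0.35 (74.2%), for Ogn 0.25 (63.9%) and for Bgn 0.11 (28.7%).

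The direction of these 3 genes rested on single libraries. The log2 fold change of Lum was 0.17, -1.55 and 0.14 without replicates 1, 2 and 3 of tdT+GFP+ cells and 0.10, -0.69 and 0.06 without replicates 1, 2 and 3 of tdT-GFP+ cells. Without both libraries of replicate 2 it was -2.01 (adjusted p = 0.0526), and without both of replicate 1 or 3 it was 0.50 and 0.41. Podn ran from -1.13 when kidney 2 was left out to 0.29 when kidney 3 was, and Fmod from -1.30 to 0.32 in the same 2 fits. Leaving out replicate 2 of tdT+GFP+ cells alone gave -0.82 for Podn and -1.08 for Fmod. With a term for the kidney the values were -0.69 for Lum, -0.28 for Podn and -0.48 for Fmod (adjusted p = 0.905, 0.927 and 0.861, edgeR).

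Within kidneys, these genes had lower values in tdT+GFP+ cells in kidneys 1 and 3 and higher ones in kidney 2. The differences in log2 CPM in kidneys 1, 2 and 3 were -2.15, 2.83 and -1.85 for Lum. For Podn they were -1.14, 1.55 and -1.09, and for Fmod -0.91, 1.21 and -1.66. Dcn (-0.52, 1.11 and 0.02) and Ogn (-0.20, 0.48 and -0.04) also had their highest difference in kidney 2. Bgn had -0.17, 0.18 and 0.22. These values rest on the kidney numbers in the labels, and another matching of the libraries would change their size and sign. Across genes, the departures of the 2 libraries of a kidney from their group means correlated by 0.04, -0.58 and -0.30 in kidneys 1, 2 and 3, so same-numbered libraries did not move together. Whether the numbers match across the sorts was not settled.

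**Figure D3:**
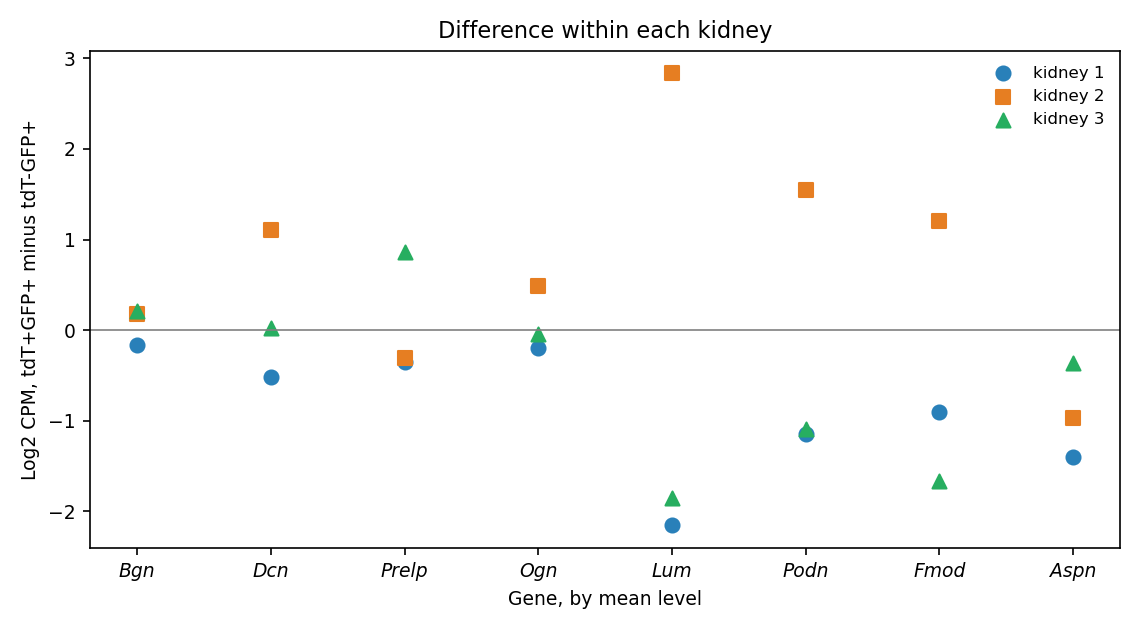
Difference in log2 CPM, tdT+GFP+ minus tdT-GFP+, within kidney 1 (circles), 2 (squares) and 3 (triangles) for each gene in order of mean level. Lum, Podn and Fmod are above 0 in kidney 2 and below 0 in kidneys 1 and 3, while Aspn is below 0 in all 3.

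Prelp did not follow its class II relatives. Its protein, prolargin, ties basement membranes to the collagen beneath them. Prelp had 313, 308 and 509 CPM in tdT+GFP+ and 399, 382 and 280 CPM in tdT-GFP+ libraries, with both the highest and the lowest level from kidney 3. For Prelp edgeR gave 0.09 on the log2 scale (SE 0.24, interval -0.48 to 0.66, adjusted p = 0.886, edgeR), with differences in log2 CPM of -0.35, -0.31 and 0.86 in kidneys 1, 2 and 3. It turned to -0.18 without replicate 3 of tdT+GFP+ cells, to -0.05 without replicate 3 of tdT-GFP+ cells and to -0.33 without both. Prelp and Fmod share a cluster on chromosome 1, yet the library with the most Prelp, tdT+GFP+ library 3, had the least Fmod.

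**Figure D4:**
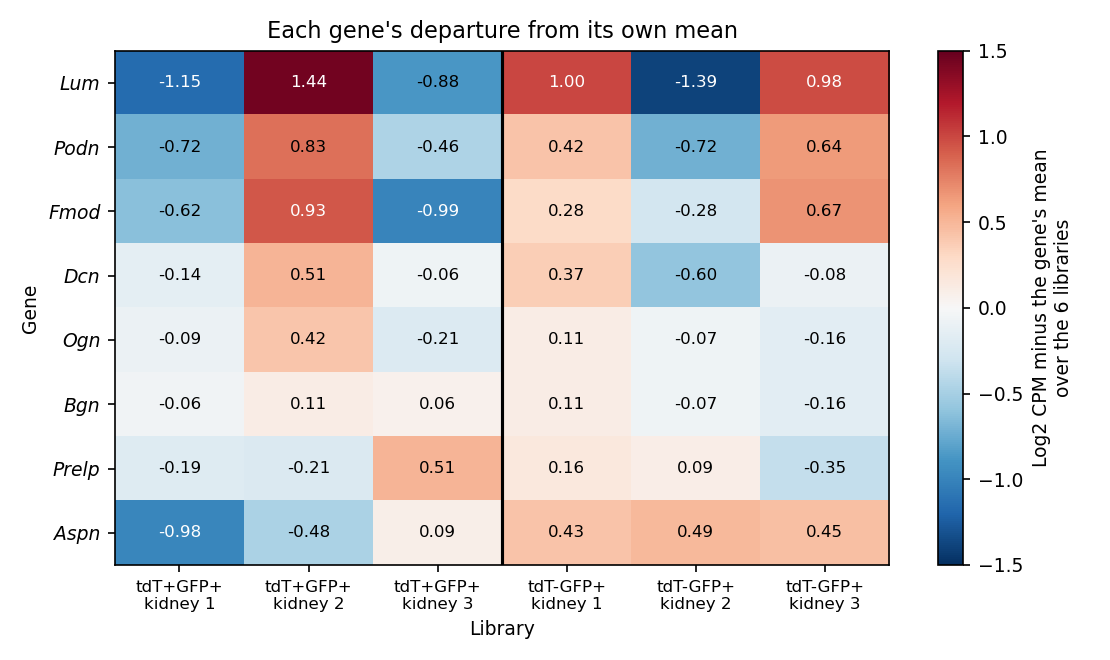
Log2 CPM of each gene minus its own mean over the 6 libraries, with genes in rows, libraries in columns and the 2 sorts parted by a line. Lum runs from -1.39 to 1.44 with Podn and Fmod above 0 in the same 3 libraries, Bgn stays within -0.16 to 0.11, and Aspn is above 0 in all tdT-GFP+ libraries and, at 0.09, in tdT+GFP+ library 3.

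Other genes traced the Lum pattern. Of 9554 other genes with a mean of at least 10 CPM, those with the highest Pearson r of log2 CPM with Lum over the 6 libraries were Lpl (lipoprotein lipase, r = 0.998), the mitochondrial complex II gene Sdhd (0.992) and Gdf10, a TGF-beta family ligand gene (0.989). For Podn they were Lpl (0.989), Gdf10 (0.988) and Slc35e3 (0.986), and for Fmod they were Steap4 (0.983), the chemokine receptor gene Cxcr4 and the ectonucleotidase gene Entpd2 (both 0.980). Each r is the highest of many, over 6 libraries that share kidneys and fall into a high and a low set, and is a description without a p. Here and below, r takes no account of amplitude: Sdhd ran only from 43.4 to 49.9 CPM, where Lum ran from 18.2 to 130 CPM. Gdf10 had 12.9, 51.5 and 13.6 CPM in tdT+GFP+ and 43.3, 12.8 and 49.8 CPM in tdT-GFP+ libraries. Pi16, a gene of adventitial fibroblasts, had 4.45, 58.7 and 3.42 against 42.2, 5.27 and 69.8 CPM, with its high levels in the 3 libraries where Lum was high.

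For Bgn the nearest patterns were those of the metalloproteinase inhibitor gene Timp2 (r = 0.983), Hmmr (0.972) and Gar1 (0.971), and for Dcn those of Ptgfrn (0.989), Lypla1 (0.985) and Tmed8 (0.985). For Aspn they were the protocadherin gene Pcdhgb5 (0.994), Cdc42ep1 (0.989) and the class I histocompatibility gene H2-T22 (0.985). For Ogn they were Camk2n1 (0.987), Bri3 (0.969) and Ap1m1 (0.965), and for Prelp they were Bud23 (0.995), Afap1l2 (0.987) and Foxm1 (0.987).

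Axin2, whose locus drove the label, was low where Lum was high. Axin2 stood at 52.7, 29.7 and 64.2 CPM in tdT+GFP+ and at 43.0, 64.2 and 27.3 CPM in tdT-GFP+ libraries. The groups overlapped, and edgeR put the difference at 0.12 on the log2 scale (SE 0.38, adjusted p = 0.907). By the labels, the tdT+GFP+ library had more Axin2 in kidneys 1 and 3 and less in kidney 2. The 3 libraries with 93.9 CPM of Lum or more had 27.3 to 43.0 CPM of Axin2, and the other 3 had 52.7 to 64.2 CPM. The comparison of Axin2 with Lum was noticed after the values were seen, and was not tested. Mesothelial markers (5 genes) were also lowest in the Lum-rich libraries, with sums of 39.3, 30.0 and 46.2 CPM in tdT+GFP+ and 31.3, 39.6 and 33.3 CPM in tdT-GFP+ libraries. The fibroblast marker sum was 38269 CPM in the tdT+GFP+ library with the most Lum. It was 31107 and 44278 CPM in the Lum-rich tdT-GFP+ libraries 3 and 1, against 37966 to 43964 CPM in the others. Col1a1 (14923 to 21843 CPM) and Col1a2 (10441 to 15750 CPM) made most of this sum. It therefore says little about lower markers such as Pi16, on the same list, which was high where Lum was high. Within each sort, 3 other marker sums were highest in the Lum-rich libraries. The endothelial sum was 451, 734 and 596 CPM in tdT+GFP+ and 1316, 1037 and 1723 CPM in tdT-GFP+ libraries. The mural sum was 944, 1115 and 1104 against 1529, 1176 and 1906 CPM. The macrophage sum was 839, 1269 and 339 against 444, 238 and 746 CPM. The tubule and podocyte sums did not follow Lum in either sort. Tubule values were 456, 576 and 765 CPM in tdT+GFP+ and 693, 1002 and 1639 CPM in tdT-GFP+ libraries. Podocyte values were 76.3, 88.2 and 101 against 161, 185 and 303 CPM. The part of these cell types in the Lum pattern was not tested.

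**Figure D5:**
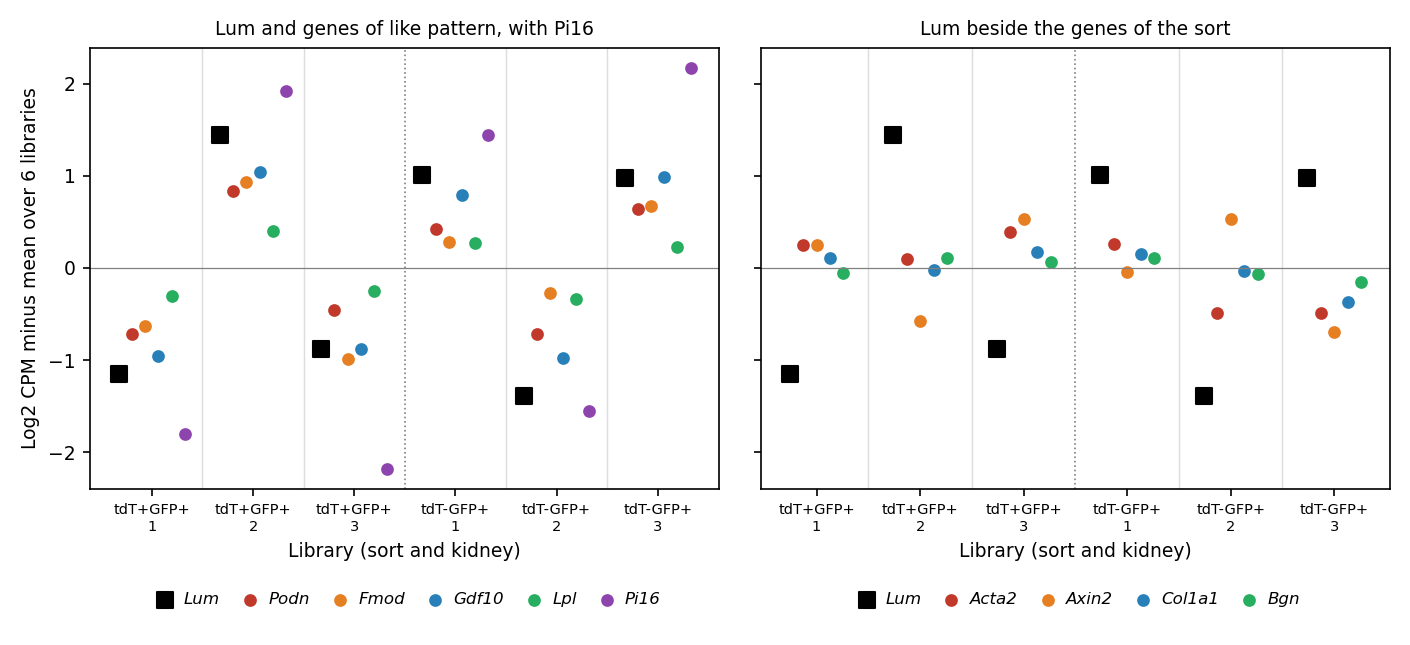
Log2 CPM minus each gene's mean over the 6 libraries, by library, with Lum as black squares and other genes as coloured dots. On the left Podn, Fmod, Gdf10, Lpl and Pi16 lie on the same side of 0 as Lum in every library. On the right Axin2 lies on the other side, just past 0 in tdT-GFP+ library 1, and Acta2, Col1a1 and Bgn stay closer to 0 than Lum.

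Of the 10 family genes outside the 8, 6 passed the filter, 3 above and 3 below 0 on the log2 scale (median -0.04), and 0 were called (smallest adjusted p = 0.491, edgeR). Tsku, which encodes the secreted signalling modulator tsukushi, had 36.5, 37.4 and 32.7 against 34.4, 29.6 and 28.4 CPM (0.21, SE 0.10). Podnl1, the close relative of Podn, had 2.26, 2.25 and 2.51 against 3.19, 2.69 and 3.11 CPM (-0.36, SE 0.19, adjusted p = 0.507). Its groups did not overlap, where 15.8% of all genes tested did not, and it did not share the swings of Podn. Kera, between Lum and Epyc on chromosome 10, had a count of 0 in all libraries, and Optc, 2.30 kb from Prelp, had 0.258 to 0.556 CPM.

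Enzymes that build chondroitin and dermatan sulfate chains leaned to positive values without a call. Of 22 tested genes 17 had positive log2 fold changes (median 0.14, where 49.9% of all genes were positive), and 0 were called (smallest adjusted p = 0.438, edgeR). Dse, which turns chondroitin into dermatan sulfate, had 153, 144 and 136 CPM in tdT+GFP+ and 130, 110 and 96.7 CPM in tdT-GFP+ libraries (0.36, SE 0.12). The chain polymerase gene Chsy1 had 115, 114 and 103 against 102, 87.0 and 81.8 CPM (0.30, SE 0.10). The sulfotransferase gene Chst3 went the other way, with 6.74, 8.63 and 8.90 against 9.31, 14.3 and 12.9 CPM (-0.59, SE 0.20). The groups of these 3 genes did not overlap, where 15.8% of all genes tested did not, and each had an adjusted p of 0.438. The 3 were named for the smallest p of their list, which favours such separation. Of 7 tested keratan sulfate genes 3 had positive values (median -0.02, smallest adjusted p = 0.499). B4galt4, which had that smallest adjusted p, stood at 8.72, 7.96 and 12.9 against 10.7, 15.3 and 13.9 CPM (-0.43, SE 0.22) and did not follow Lum. Chst2, a sulfotransferase gene, had 42.6, 54.8 and 36.4 against 66.9, 41.4 and 66.7 CPM, with its highest levels where Lum was high.

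The partners and proteases of the family were mixed. Of 11 collagen genes 8 had positive values (median 0.14, smallest adjusted p = 0.489), among them the fibril-associated collagen gene Col12a1 at 3746, 2464 and 4078 against 3007, 1927 and 1213 CPM (0.74, SE 0.36). Of 12 processing and cleavage enzymes 5 had positive values (median -0.04). The gelatinase gene Mmp9 had 35.6, 43.8 and 57.0 against 81.7, 53.3 and 68.5 CPM (-0.58, SE 0.21, adjusted p = 0.445, edgeR). Of 17 signalling partners 11 had positive values (median 0.23). Tlr4, a receptor for biglycan, had 32.8, 32.9 and 24.7 against 28.0, 17.0 and 20.2 CPM (0.47, SE 0.21, adjusted p = 0.474), and Met, a kinase bound by decorin, had -0.62 (SE 0.29, adjusted p = 0.482). The VEGF receptor gene Kdr, another decorin partner and an endothelial gene, had 42.0, 71.3 and 41.3 against 123, 72.7 and 177 CPM (-1.27, SE 0.36, adjusted p = 0.414, edgeR). DESeq2 called Kdr lower (adjusted p = 0.0202, or 0.0439 with the kidney term). It called 0 genes of the other lists in this paragraph and the one before.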

How the data were processed

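The authors deposited 1 table of estimated counts per gene (RSEM gene results, per the file headers), with whole numbers, so rounding changed none. Named in the submitters' processing notes are STAR 2.6.1 and RSEM 1.2.28 among other tools, and, with no role stated, mm10 and GRCh38. No annotation release is named there. The 92 spike-in rows, 0 in all libraries, were left out. Positions and lengths came from GENCODE M21 (GRCm38), which held 31748 of the 31815 gene identifiers without their version, and promoter sequences from RefSeq.

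Genes were filtered with filterByExpr, scaled by TMM and tested over all 6 libraries by the quasi-likelihood test of edgeR 4.0.16 in R 4.3.3 (robust glmQLFit, then glmQLFTest, with group as its sole term), Benjamini-Hochberg adjusted over all 15462 genes tested at a threshold of 0.05. The SE is the log2 fold change divided by the root of its F value. Correlations, within-group SDs and kidney differences used log2 CPM with a prior count of 2. Alternatives were other scaling factors and filters, DESeq2 1.42.0, limma-voom 3.58.1, the kidney as a block, and leaving out libraries or kidneys. The labels give libraries of 1 number the same kidney. Across genes, the correlation of such a pair in its departures from group means was 0.04 (kidney 1), -0.58 (kidney 2) and -0.30 (kidney 3). The procedure was tested on simulated data, with planted changes larger than the main estimates of the 8 genes and no kidney differences. That test does not bear on smaller differences or wider spread. All 8 genes, up to 3 genes per list by smallest p and 3 look-alikes per gene were named by rule. Family neighbours in the clusters, Acta2 and Axin2 were named by rule too. Pi16, Pdgfrb, Col1a1 and the comparison of Axin2 with Lum were added after values were seen. The genes and lists were chosen with earlier results of these data known.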

Additional observations from a re-analysis of the deposited data

How the results depend on the processing

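The number of the 8 genes called stayed 0 under all 18 alternatives, with the smallest adjusted p at 0.0526 (Lum without both libraries of replicate 2, where its other alternatives reached up to 0.999). Their median log2 fold change was -0.11 in the paired fit (edgeR with the replicate block) and ran from -0.54 to 0.25 over the fits that left out a library or a kidney. Of 144 values per gene and alternative, 121 kept their sign. Bgn and Aspn kept it in all 18, which for Aspn follows largely from groups that did not overlap. With limma-voom and quality weights Prelp turned to -0.0354. Leaving out a library or both libraries of a kidney moved Lum between -2.01 and 0.50, Fmod between -1.30 and 0.32, Podn between -1.13 and 0.29, Dcn between -0.27 and 0.59, Prelp between -0.33 and 0.32 and Ogn between -0.13 and 0.27, and the sign of each turned in at least 1 of these fits. The replicate block changed no call. Other scaling factors and filters turned no sign. Each gene had counts of 131 or more in each library. The parts of depth and of spread between libraries in the limits of these comparisons were not tested.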

Other observations

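Genes of other proteoglycan core proteins, a list of large, cell-surface and basement membrane proteoglycans, had more negative than positive values, without a call. Of 20 tested genes 13 had negative log2 fold changes (median -0.18, where 49.9% of all genes were positive), and 0 were called (smallest adjusted p = 0.440, edgeR). Agrn, which encodes the basement membrane proteoglycan agrin, had 278, 290 and 331 CPM in tdT+GFP+ and 354, 354 and 450 CPM in tdT-GFP+ libraries (-0.37, SE 0.13). The cell-surface glypican gene Gpc4 went the other way, at 173, 157 and 157 against 149, 120 and 130 CPM (0.28, SE 0.10, adjusted p = 0.442). The groups of both genes, named for their small p, did not overlap, where 15.8% of all genes tested did not. The glypican gene Gpc2 had 7.35, 6.80 and 10.2 against 10.6, 12.8 and 8.45 CPM (-0.39, SE 0.22, adjusted p = 0.518), with overlapping groups.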
